A study of Mus musculus with 32 samples.

Results

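The 9 genes that together mark steroid hormone production in the ovary were followed through mouse models of high-grade serous ovarian carcinoma: Star, Cyp11a1, Hsd3b1, Cyp17a1, Cyp19a1, Hsd17b1, Akr1c18, Fshr and Lhcgr. They were taken from the gene table by symbol, with no threshold on a measured value, and are 9 of the 55450 genes measured. RNA sequencing of 32 mouse libraries covered 26 tumours and 6 normal tissues, which fall into 10 groups.

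All tumours shared floxed Brca1 (Brca1 fl/fl) and the K18GT121 Tg/+ transgene, which inhibits Rb. OSE-BPR tumours were induced on the FVB strain, with Trp53 fl/fl, by adenovirus carrying Cre recombinase placed under the ovarian bursa, so that they arise from the ovarian surface epithelium. Ad-BPR tumours (C57Bl/6, Trp53 fl/fl) came from the same virus given into the oviducts. Pax8-BPR tumours (C57Bl/6, Trp53 fl/fl) came from tamoxifen and a Pax8-CreERT2 Tg/+ transgene active in oviduct secretory cells. Ovgp1-BPR tumours (C57Bl/6) came from tamoxifen and an Ovgp1-CreERT2 Tg/+ transgene of the same cells, and the sample labels give Trp53 KozR172H ki/+ where the genotype in the series text has Trp53 fl/fl. Each model has primary tumours of the engineered mice (GEMM) and allografts: 3 and 5 of OSE-BPR, 2 and 4 of Ad-BPR, 4 and 2 of Pax8-BPR, and 3 and 3 of Ovgp1-BPR. Tumours were taken at endpoint. The sources used here do not give the allograft hosts or the ages. Normal ovary and oviduct (3 libraries each) came from the same 3 wild-type C57Bl/6 females. Strain cannot be told apart from site of origin for OSE-BPR. The labels tie no allograft to its source tumour, so p-values measure the spread between these samples, part of which may be shared.

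Ovarian steroids are made from cholesterol in theca, granulosa and luteal cells. Star brings cholesterol to the inner mitochondrial membrane, Cyp11a1 cuts its side chain to give pregnenolone, and Hsd3b1 converts pregnenolone to progesterone. Cyp17a1 of theca cells leads on to androgens, Cyp19a1 (aromatase) of granulosa cells turns androgens into oestrogens, and Hsd17b1 converts oestrone to the more active oestradiol. Akr1c18 inactivates progesterone and is known from the regressing corpus luteum. Fshr and Lhcgr are the receptors through which the pituitary gonadotropins drive these steps by cyclic AMP.

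Libraries held between 13987123 and 20514825 assigned reads, with a median of 17426862. Values are given as CPM, counts scaled to the size of the library, unless TPM are named, which are scaled to gene length as well. A limit of 3 reads corresponds to between 0.140 and 0.219 CPM in the different libraries, and values at or under it are close to no detection. Several libraries stand apart. The 8 oocyte genes summed to between 374 and 415 CPM in ovary, but also to 132 and 114 CPM in oviduct replicates 1 and 3, against 5.25 CPM in replicate 2. The number of members called against normal oviduct, or in it, is therefore given with and without replicates 1 and 3, as are some folds. Counts over the other gene lists use all 3 oviducts. Pax8-BPR GEMM replicate 1 held the highest Star, Cyp11a1, Hsd3b1 and Lhcgr of all tumours, and its effect is likewise given. The 5 oviduct secretory genes summed to between 5599 and 12550 CPM in oviduct, between 479.5 and 7620 CPM in the 18 tumours of oviduct origin, and between 91.9 and 277 CPM in the 8 OSE-BPR tumours.

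Normal ovary carried all 9 genes, and their transcripts made up between 1.27% and 1.49% of all TPM in its 3 libraries. In TPM, the most abundant was Hsd3b1 at 4670 ± 437 (SD, n = 3), next to Cyp11a1 at 4400 ± 565. Akr1c18 followed at 2308 ± 921 TPM. Star stood at 972 ± 376 TPM and Cyp17a1 at 880 ± 552 TPM. The late, oestrogen-forming steps were scarcer, with Hsd17b1 at 180 ± 18.0 TPM and Cyp19a1 at 62.95 ± 37.0 TPM. The receptors were at 154 ± 68.2 TPM for Lhcgr and 17.8 ± 2.94 TPM for Fshr.

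The 3 ovaries did not vary alike in every gene. Hsd17b1 was even, at 144, 119 and 131 CPM. Cyp17a1 was at 1100 and 1178 CPM in replicates 1 and 2 but at 236 CPM in replicate 3, which also had the lowest Lhcgr and the highest Star and Akr1c18. Cyp19a1 was at 150 CPM in replicate 1 and at 62.9 and 54.9 CPM in the others. The sources used here give no stage of the oestrous cycle.

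The members lie apart in the genome, except the 2 receptors, which neighbour each other on the minus strand of chromosome 17. In GRCm38 with GENCODE M21, Fshr spans chr17:88984952-89200675 and Lhcgr chr17:88716481-88791990. Cyp11a1 (chr9:58006411-58027023, plus strand) and Cyp19a1 (chr9:54165937-54268110, minus strand) share chromosome 9. Cyp11a1 overlaps the predicted gene Gm17322 over 145 exon bases, and 2.1% of its 50-base words also occur in other genes. For Hsd3b1 (chr3:98852194-98859794, minus strand) the share is 4.9%, in part with its paralogs Hsd3b2 and Hsd3b6. Those paralogs were nearly absent: Hsd3b6 reached at most 0.514 CPM in any library, in ovary, and Hsd3b2 was at 0 in all 3 ovaries. Akr1c18 (chr13:4132615-4150654, minus strand) shares 0.6% of its words with Akr1cl, and the remaining members share none. Of these, Star lies at chr8:25806555-25815982 (plus strand), Cyp17a1 at chr19:46667165-46673172 (minus strand) and Hsd17b1 at chr11:101078411-101080527 (plus strand).

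RefSeq promoters in GRCm38.p6, from 250 bases before to 50 after the start, were matched for 6 of the 9 members, with 9 promoters in all. They were searched on both strands for CAAGGNCA, bound by Nr5a1 and Nr5a2, for the GATA factor motifs AGATAA and TGATAA, for the cyclic AMP element core TGACG and for TATAAA. Of all 32544 distinct promoters in the table, 6.68% hold CAAGGNCA, 11.2% AGATAA, 8.91% TGATAA, 20.9% TGACG and 13.6% TATAAA, so single matches are common. The 250 bases upstream of the start are shown for 3 promoters, with the matches in capitals. They illustrate an early enzyme of the pathway, its next step and aromatase. Hsd3b1 (chr3:98859795-98860044, minus strand) has AGATAA on the opposite strand, Cyp11a1 at the more distant of its pair of RefSeq starts (chr9:57997774-57998023, plus strand) has TGACG on the opposite strand, and Cyp19a1 at the second of its 3 starts (chr9:54228915-54229164, minus strand) has TATAAA on both strands, overlapping.
Cyp11a1: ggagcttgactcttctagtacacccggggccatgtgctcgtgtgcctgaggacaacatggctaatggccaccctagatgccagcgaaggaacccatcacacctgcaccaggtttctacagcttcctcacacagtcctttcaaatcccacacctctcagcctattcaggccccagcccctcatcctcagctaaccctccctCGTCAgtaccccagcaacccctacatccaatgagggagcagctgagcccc
Hsd3b1: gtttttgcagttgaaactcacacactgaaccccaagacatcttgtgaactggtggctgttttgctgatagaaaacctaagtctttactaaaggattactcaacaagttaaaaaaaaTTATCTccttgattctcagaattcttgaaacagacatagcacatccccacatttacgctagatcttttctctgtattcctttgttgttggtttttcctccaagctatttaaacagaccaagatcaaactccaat
Cyp19a1: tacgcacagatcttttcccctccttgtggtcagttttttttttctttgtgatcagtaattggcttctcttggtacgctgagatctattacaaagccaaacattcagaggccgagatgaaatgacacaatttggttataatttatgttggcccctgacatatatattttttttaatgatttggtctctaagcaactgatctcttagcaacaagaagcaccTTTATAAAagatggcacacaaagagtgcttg
CAAGGNCA was found once among the 9 promoters, downstream of another Cyp19a1 start. None of the 5 motifs lay in the promoters of Akr1c18, Fshr or Lhcgr, or in the promoter at the other Cyp11a1 start. A match is a string of letters only, and no binding was measured.

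**Figure D1:**
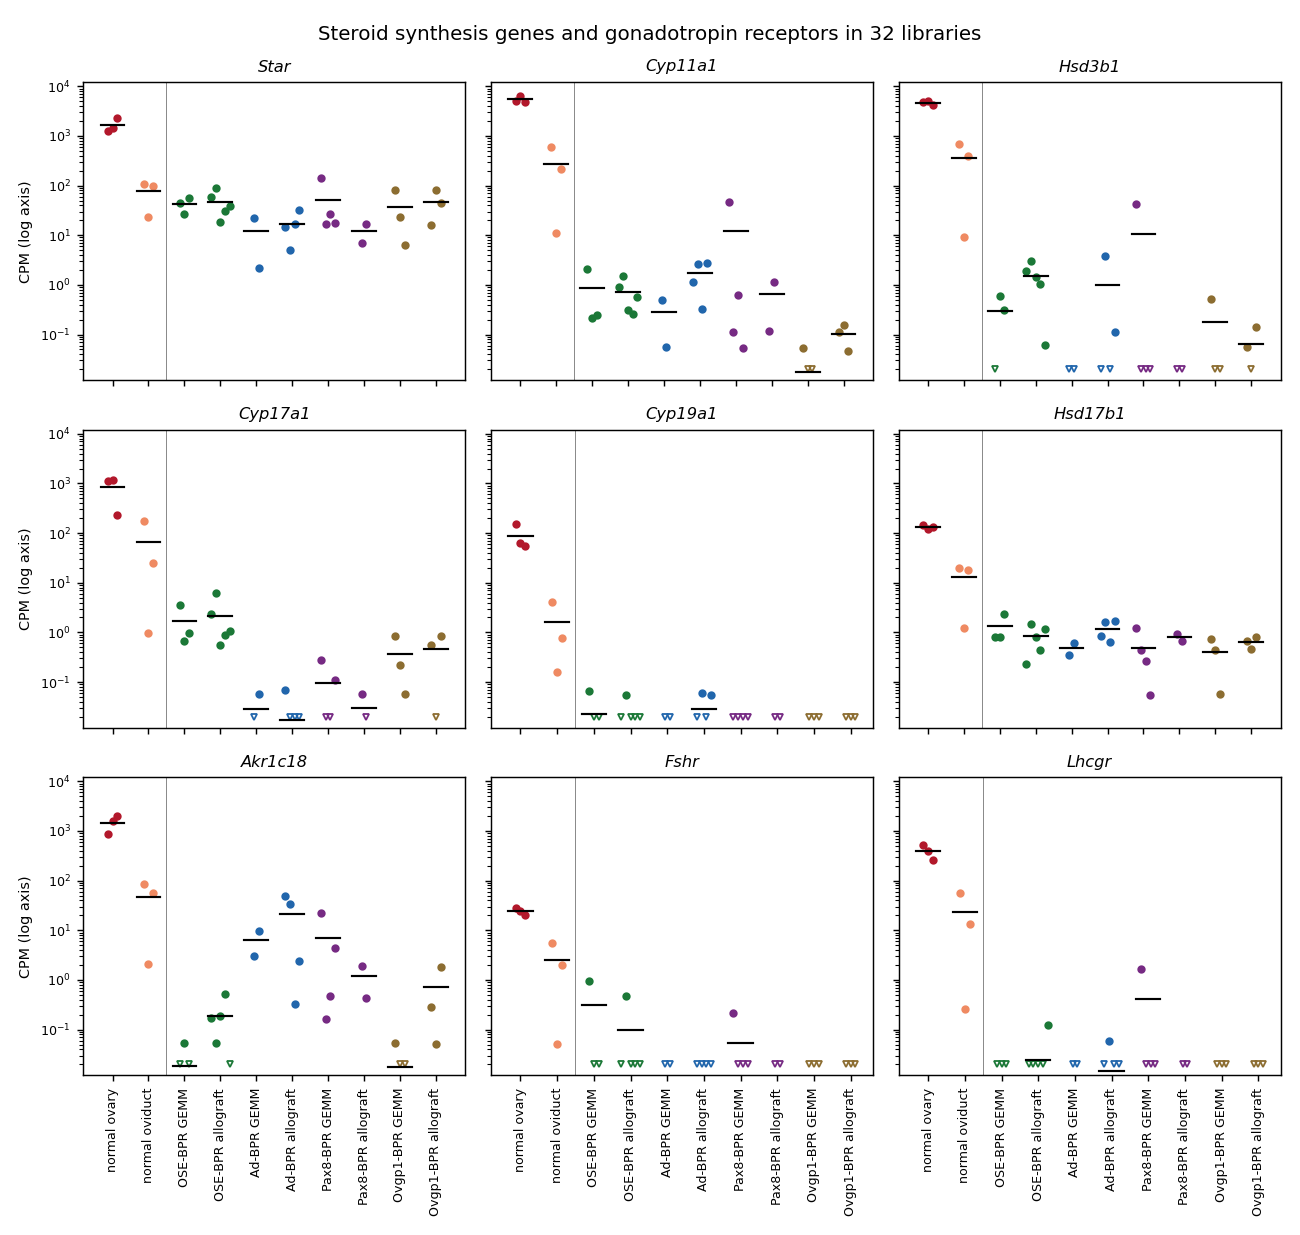
Level of each of the 9 genes in CPM (log axis) in every library, by group. Points are libraries, bars are group means, and triangles at the foot mark libraries at 0. The 3 ovaries lie above every tumour for all 9 genes, and Star is the only one that stays above 2 CPM in all 26 tumours.

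In oviduct the genes were lower than in ovary, by an amount that differed greatly between the 3 animals. Star was at 109, 23.4 and 97.7 CPM in oviduct replicates 1 to 3, against 1250, 1459 and 2260 CPM in the ovaries. Cyp11a1 was at 594, 11.1 and 214 CPM against 5094, 6414 and 4923 CPM. Hsd3b1 was at 691, 9.25 and 386 CPM against 4822, 5087 and 4119 CPM. The oviduct of animal 2 was the lowest for all of these, and no oviduct library reached an ovary level. Cyp17a1, of theca cells, was at 174, 0.988 and 25.5 CPM in oviduct. Akr1c18 was at 83.7, 2.13 and 55.8 CPM.

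By edgeR's quasi-likelihood test with Benjamini-Hochberg adjustment over 17334 genes, 8 of the 9 were lower in oviduct, where 24.5% of all genes tested were called lower. The median log2 fold change over the 9 was -3.96, against 0.02 over all genes. Star fell by 4.34 on the log2 scale (SE 0.60, adjusted p = 0.0011). Cyp19a1 was at -5.74 ± 0.83 (SE, adjusted p = 0.0013), from 150, 62.9 and 54.9 CPM to 4.02, 0.156 and 0.770 CPM. Akr1c18 fell by 4.87 (SE 1.12, adjusted p = 0.0093), Cyp11a1 by 4.23 (SE 1.17, adjusted p = 0.02) and Hsd17b1 by 3.22 (SE 0.75, adjusted p = 0.0098). Both receptors fell, Lhcgr by 3.96 (SE 1.21, adjusted p = 0.029) and Fshr by 3.21 (SE 0.84, adjusted p = 0.016). Cyp17a1 missed the threshold at -3.55 ± 1.45 (SE, adjusted p = 0.075). Cyp19a1, Fshr and Lhcgr had fewer than 10 reads in oviduct replicate 2 and were kept in the test through the ovary, so that their calls follow from the filter and the count carries no weight for them. Of the other 6 members, 5 were lower.

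The count of 8 rested in part on single libraries. Without oviduct replicate 3 it was 4 of 9, and in a fit of all 32 libraries without oviduct replicates 1 and 3, chosen after the data were seen, it was also 4. That fit has 1 oviduct library, whose spread is assumed to be that of the other groups. With the animal as a replicate block Hsd3b1 lost its call, at -4.45 (adjusted p = 0.053). Hsd17b1 passed in all 14 alternatives.

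Expressed as a share of the same animal's ovary, the 9 genes had a median of 11.7% in oviduct 1, 0.182% in oviduct 2 and 5.21% in oviduct 3. The members ranged from 2.69% to 19.3% in oviduct 1 and from 1.40% to 14.0% in oviduct 3. In oviduct 2 they ranged from 0.0668% to 1.60%, with Star the highest. Ovarian cell markers followed the same order. The 7 oocyte genes with enough signal, of 8, had medians of 34.5%, 1.27% and 28.8%, and the 9 granulosa genes of 22.1%, 1.57% and 14.5%. The part of ovarian tissue in these oviduct levels was not tested. In bulk tissue, fewer cells of a type and less RNA per cell cannot be told apart.

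**Figure D2:**
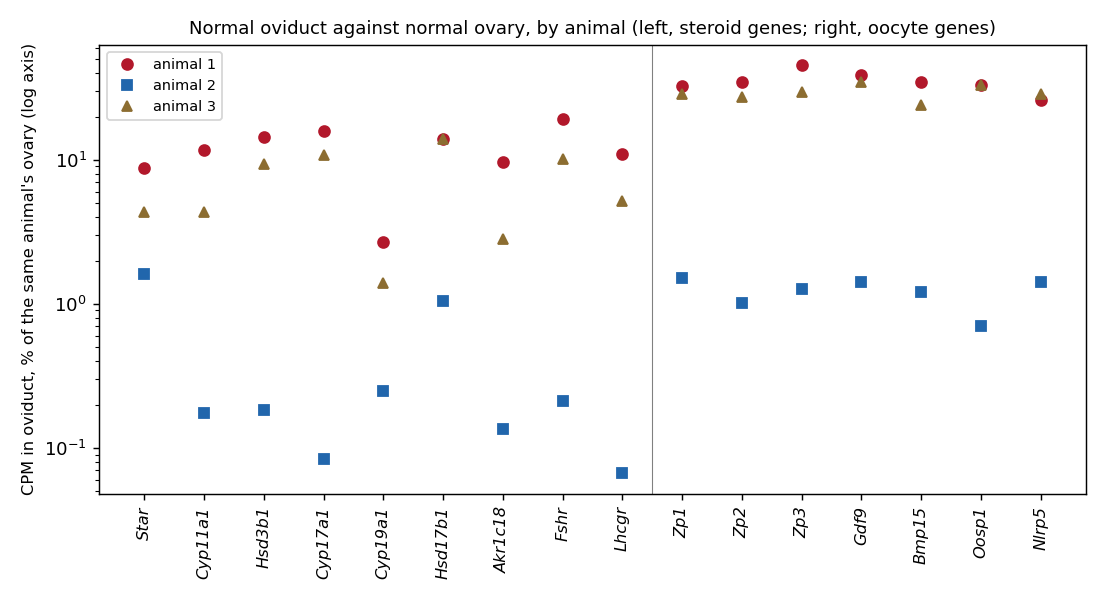
Level in each oviduct as a percentage of the ovary of the same animal (log axis), for the 9 genes and for oocyte markers. Each point is a gene. The oviduct of animal 2 lies lowest for both sets, with a median of 0.182% for the 9 genes against 11.7% and 5.21% in the other animals.

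In the tumours the steroid pathway was low throughout. The 9 genes together made up between 0.000398% and 0.0164% of TPM, with a median of 0.00236% over 26 tumours, so the highest tumour was still below the 1.27% of the lowest ovary. Star gave most of what remained: its share of the members' TPM had a median of 84.3% over the tumours and was above 50% in 21 of 26, against 5.38%, 5.62% and 10.4% in the ovaries. Detection differed between the members. Star had at least 10 reads in all 26 tumours and Hsd17b1 in 16, Cyp17a1 in 10, Cyp11a1 and Akr1c18 in 9 each and Hsd3b1 in 8. Fshr and Lhcgr reached 10 reads in 1 tumour each, and Cyp19a1 in none, with 4 reads over all 26 tumours.

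OSE-BPR GEMM tumours were compared with normal ovary, the organ they arise on. All 9 genes were lower at the adjusted threshold (edgeR, 20887 genes), where 11.6% of all genes were called lower, and every tumour lay below every ovary for each. Cyp19a1, Fshr and Lhcgr were kept in the test through the ovary, so that their calls follow from the filter and the count carries no weight for them. The ovary holds cell types that an epithelial tumour does not, and the normal ovaries are C57Bl/6 while these tumours are FVB. The markers of those cells were lower in the tumours too: 8 of 8 oocyte genes, 7 of 9 granulosa genes, 3 of 5 theca and stromal genes and 3 of 5 luteal genes, with Zp1, Zp2, Oosp1 and Figla at 0 in all 3 OSE-BPR GEMM. Zp1, Zp2, Oosp1 and Figla did not pass the filter among tumours and entered through the normal tissues. The oocyte count therefore carries no weight for these genes. The part of the missing cell types in the result was not tested.

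Star showed the smallest change. It was at 45.2, 26.6 and 56.2 CPM in the 3 OSE-BPR GEMM and fell by 5.28 on the log2 scale (SE 1.08, adjusted p = 0.0012). The 11 alternatives gave between -5.53 and -4.92, all past the threshold. Cyp11a1 was at 2.08, 0.220 and 0.244 CPM and fell by 12.68 (SE 2.12, adjusted p = 0.00017). Hsd3b1 was at 0, 0.604 and 0.305 CPM, the latter values being 11 and 5 reads, and fell by 13.82 (SE 2.77, adjusted p = 0.0011).

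Cyp17a1 was at 3.49, 0.659 and 0.977 CPM and fell by 8.95 on the log2 scale (SE 1.44, adjusted p = 0.00012). Hsd17b1 fell by 6.61 (SE 0.97, adjusted p = 4.5e-05). Aromatase was all but undetected, with 1 Cyp19a1 read over the 3 tumours. The ovary level was 4205 times higher (95% counting interval 754 to 166100, adjusted p = 3.6e-05). Akr1c18 also had 1 read in these tumours, a ratio of 75300 (13510 to 2974000, adjusted p = 0.00011). Of the receptors, Lhcgr was at 0 in all 3 and so at least 2116-fold lower against a limit of 3 reads per library (adjusted p = 0.00022). Fshr had 14 reads in replicate 1 (0.938 CPM) and none in the other 2 tumours, a fall of 6.29 (SE 1.86, adjusted p = 0.023) that DESeq2 did not call (adjusted p = 0.35). It also missed the threshold without OSE-BPR GEMM replicate 2 or 3, at adjusted p = 0.079 and 0.077.

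The 9 GEMM tumours of the 3 oviduct-origin models, weighted equally by model, were set against normal oviduct. There 8 of 9 members were lower, where 20.9% of all genes were called lower. Cyp19a1, Fshr and Lhcgr did not pass the filter among tumours and entered through the normal tissues, so the count carries no weight for them, and 5 of the other 6 members were lower. Without oviduct replicates 1 and 3, the normal arm is 1 library, replicate 2, and its spread is assumed to be that of the other groups. In that fit Cyp11a1 (adjusted p = 0.048) kept its call, and Cyp19a1 (adjusted p = 0.021) then compares single reads, while 6 of the 8 calls were lost. The oocyte genes were lower in 8 of 8 in the same comparison with all oviducts, and the part of ovarian tissue in those oviducts was not tested. Zp1, Zp2, Oosp1 and Figla again entered through the normal tissues, so the oocyte count carries no weight for them.

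Star did not pass in this comparison. It was between 2.16 and 139.9 CPM with a median of 22.3 in the 9 tumours, overlapping the 23.4 to 109 CPM of oviduct, and the fold was -1.44 ± 0.70 (SE, adjusted p = 0.11). It passed without Ad-BPR GEMM replicate 1 (-2.22, adjusted p = 0.031), without Pax8-BPR GEMM replicate 1 (-1.93, adjusted p = 0.019) or without Ovgp1-BPR GEMM replicate 1 (-1.87, adjusted p = 0.035). Against oviduct replicate 2 alone its sign turned, to 0.26 (adjusted p = 0.96). Cyp11a1 was between 0 and 47.6 CPM in the tumours with a median of 0.0569, a fall of 9.29 (SE 1.40, adjusted p = 1.5e-05). Without Pax8-BPR GEMM replicate 1, all 17 remaining oviduct-origin tumours, allografts included, were at 2.77 CPM or below.

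The other enzymes were lower by larger amounts when all 3 oviducts were used. Cyp17a1 fell by 9.22 (SE 1.11, adjusted p = 7.4e-07) and Hsd17b1 by 4.82 (SE 0.63, adjusted p = 2.5e-06). Akr1c18 fell by 5.51 (SE 1.2, adjusted p = 0.00094), with overlapping values, since Ad-BPR and Pax8-BPR tumours kept some. Against oviduct replicate 2 alone, with no spread of its own, these became -3.16 (adjusted p = 0.13), -1.44 (adjusted p = 0.32) and -1.06 (adjusted p = 0.78). No Cyp19a1 read was found in the 9 tumours, which puts it at least 9.43-fold lower against a limit of 3 reads per library. Fshr had 3 reads in the 9 tumours, a ratio of 123.1 (41.2 to 605, adjusted p = 0.0017), which DESeq2 did not call (adjusted p = 0.15).

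**Figure D3:**
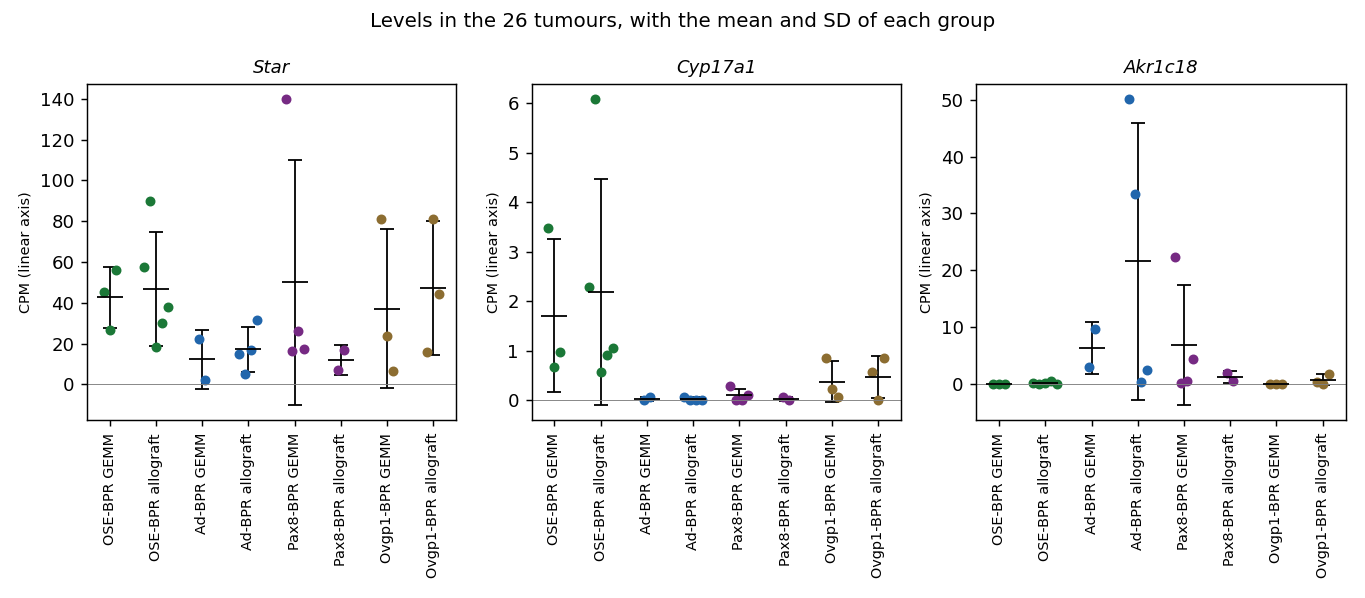
Star, Cyp17a1 and Akr1c18 in the 26 tumours, in CPM (linear axes that start below 0 to hold the error bars), by group. Points are libraries, and the lines are the group mean and SD. Cyp17a1 is highest in OSE-BPR tumours and Akr1c18 in Ad-BPR tumours, and for Star the highest tumour is Pax8-BPR GEMM replicate 1 at 139.9 CPM.

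Among the tumours, 6 of the 9 members passed the filter on low counts, and Cyp19a1, Fshr and Lhcgr did not. Of the 6, 4 differed among the 8 tumour groups (edgeR, 20000 genes, of which 52.0% were called): Akr1c18 (adjusted p = 0.00063), Cyp17a1 (adjusted p = 0.0016), Cyp11a1 (adjusted p = 0.0043) and Hsd3b1 (adjusted p = 0.042). Star (adjusted p = 0.32) and Hsd17b1 (adjusted p = 0.45) did not pass. A share of 4 in 6 is near that background. Each model was then compared with the mean of the other 3, weighting groups equally on the log scale. These comparisons share tumours with each other.

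Cyp17a1 was higher in OSE-BPR tumours. It was at 3.49, 0.659 and 0.977 CPM in the GEMM and at 2.29, 6.09, 0.567, 0.902 and 1.06 CPM in the allografts. All 8 had reads. In the 18 oviduct-origin tumours it was between 0 and 0.848 CPM with a median of 0.0568, at 0 in 8 of them, and only 2, both Ovgp1-BPR, reached the lowest OSE-BPR value. The difference was 4.39 ± 0.71 on the log2 scale (SE, adjusted p = 4e-05), in a comparison in which 2 of the 6 members and 49.4% of all genes were called. It passed in all 31 alternatives, with folds between 1.28 and 4.76 and adjusted p of at most 0.00047. Even so, the highest OSE-BPR tumour had 0.727% of the mean ovary level.

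Akr1c18 was highest in Ad-BPR tumours. In this model it was at 3.07 and 9.61 CPM in the GEMM and at 50.1, 33.5, 0.322 and 2.39 CPM in the allografts. In OSE-BPR no tumour exceeded 0.515 CPM, and 3 of 8 were at 0. A single OSE-BPR allograft overlapped the lowest Ad-BPR allograft. Akr1c18 was higher in Ad-BPR than in the other models by 5.27 ± 0.89 (SE, adjusted p = 0.00025), where 2 of the 6 members and 28.7% of all genes were called. All 31 alternatives kept the call, with folds between 2.68 and 5.63. The highest value, 50.1 CPM, was 3.40% of the mean of ovary. In OSE-BPR the gene was lower by 4.53 (SE 1.5, adjusted p = 0.016), a call that ended without Ovgp1-BPR GEMM replicate 1 (adjusted p = 1). Its relative Akr1c14, another steroid reductase, was at 181 to 191 CPM in ovary, and was higher in Ovgp1-BPR (3.17 ± 0.52, adjusted p = 0.00013) and lower in Pax8-BPR (-3.43 ± 0.80, adjusted p = 0.0034).

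In Ad-BPR tumours Cyp17a1 was lower, with 2 reads over the 6 tumours. Pooled over the other tumours, the level was 45.7 times higher (95% counting interval 12.6 to 379). Pax8-BPR was also low, with 7 reads over its 6 tumours. The edgeR comparison, which weights groups equally on the log scale, gave -3.65 ± 1.19 (SE, adjusted p = 0.026). This call was lost without either Ad-BPR GEMM (adjusted p = 0.12 and 0.084) and without Pax8-BPR allograft replicate 1 (adjusted p = 1).

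Pax8-BPR tumours had 2 members called, both higher on the log scale, where 28.0% of all genes were called. They were Cyp11a1 (3.18 ± 0.91, SE, adjusted p = 0.013) and Akr1c18 (2.56 ± 0.89, adjusted p = 0.037). As plain means of the groups, Akr1c18 was not higher, at 4.005 CPM in Pax8-BPR against 4.794 CPM in the other models. Cyp11a1 was at 47.6, 0.110, 0.636 and 0.0537 CPM in the GEMM and at 0.117 and 1.17 CPM in the allografts. One tumour stood far above the rest. Without Pax8-BPR GEMM replicate 1 neither gene passed: Cyp11a1 was at 0.46 (adjusted p = 0.65) and Akr1c18 at 1.55 (adjusted p = 0.2). Of 31 alternatives, 27 kept the Cyp11a1 call and 23 that of Akr1c18, whose folds ranged from 0.39 to 2.95. Akr1c18, at 22.4, 0.165, 0.477 and 4.35 CPM in the GEMM and at 1.94 and 0.438 CPM in the allografts, also missed the threshold without Pax8-BPR allograft replicate 1 (1.87, adjusted p = 0.29).

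Ovgp1-BPR had 1 member called, lower, where 30.5% of all genes were called. Cyp11a1 was at 0.0530, 0 and 0 CPM in the GEMM and at 0.112, 0.155 and 0.0467 CPM in the allografts, a difference of -4.43 ± 1.32 (SE, adjusted p = 0.015). All of these are 3 reads or fewer. Akr1c18 was at most 1.82 CPM there, in allograft replicate 3, and missed the threshold at -3.30 ± 1.40 (SE, adjusted p = 0.079), while DESeq2 called it (-3.45, adjusted p = 0.0065).

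Star, by contrast, varied widely within every model. It was at 45.2, 26.6 and 56.2 CPM in OSE-BPR GEMM and between 18.6 and 89.7 CPM in the 5 allografts. Ad-BPR GEMM held 22.3 and 2.16 CPM and the allografts 14.8, 4.97, 17.1 and 31.7 CPM. Pax8-BPR GEMM held 139.9, 16.6, 26.3 and 17.3 CPM and the allografts 6.87 and 17.0 CPM. Ovgp1-BPR GEMM held 80.8, 23.7 and 6.46 CPM and the allografts 15.9, 81.3 and 44.2 CPM. The order of group means, from Pax8-BPR GEMM at 50.03 ± 60.1 (SD, n = 4) down to Pax8-BPR allograft at 11.9 ± 7.16 (SD, n = 2), had no neighbours whose libraries did not overlap, and 8 of the 18 oviduct-origin tumours reached the lowest OSE-BPR value. OSE-BPR was higher by 0.87 ± 0.49 (SE, adjusted p = 0.15). Of 31 alternatives, 27 kept this result and the rest passed the threshold, with folds between 0.67 and 1.5 over all 31. That difference passed with limma on log2(TPM + 1) (1.37, adjusted p = 0.02) and without Ad-BPR GEMM replicate 1 or Pax8-BPR GEMM replicate 1 (adjusted p = 0.049 and 0.047).

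Hsd3b1 was patchy. It was at 0 in 13 of 26 tumours and at 43.0 CPM in Pax8-BPR GEMM replicate 1, 3.79 CPM in Ad-BPR allograft replicate 2 and 2.97 CPM in OSE-BPR allograft replicate 2. OSE-BPR was the model with reads in most tumours, 7 of 8, between 0.0621 and 2.97 CPM. No fold is given because groups at 0 leave it undefined. Hsd17b1 had reads in all 26 tumours, between 0.0537 and 2.38 CPM with a median of 0.707, and differed in no model comparison. Aromatase had a single read in each of OSE-BPR GEMM replicate 1, OSE-BPR allograft replicate 2 and Ad-BPR allografts 2 and 4, and none in the other 22 tumours.

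The receptors were at 0 in 23 of 26 tumours each. Lhcgr had 23 reads (1.63 CPM) in Pax8-BPR GEMM replicate 1, 2 in OSE-BPR allograft replicate 5 and 1 in Ad-BPR allograft replicate 2. Fshr had 14 reads (0.938 CPM) in OSE-BPR GEMM replicate 1, 9 (0.485 CPM) in OSE-BPR allograft replicate 2 and 3 (0.212 CPM) in Pax8-BPR GEMM replicate 1. Normal ovary held 517, 389 and 255 CPM of Lhcgr and 28.4, 24.6 and 19.9 CPM of Fshr. Of the pituitary hormones that these receptors bind, Fshb was at 0 in all libraries, and the shared subunit Cga had reads in OSE-BPR tumours only, at most 1.74 CPM. Lhb, the subunit particular to the hormone that Lhcgr binds, was at 3.24, 5.56 and 4.43 CPM in oviduct and at most 0.219 CPM in ovary. It was at 0 in 5 of 26 tumours, all OSE-BPR, where it was at most 0.186 CPM, and reached 1.43 CPM in Ad-BPR, 5.99 CPM in Pax8-BPR and 0.437 CPM in Ovgp1-BPR. Lhb was higher in Pax8-BPR (2.59 ± 0.72, SE, adjusted p = 0.011) and Ad-BPR (1.99 ± 0.73, adjusted p = 0.044) than in the other models, and lower in OSE-BPR (-3.32 ± 0.96, adjusted p = 0.007).

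Pax8-BPR GEMM replicate 1 carried most of the pathway at a low level. As a percentage of the mean of ovary it had 8.45% of Star, 0.919% of Hsd3b1, 0.869% of Cyp11a1, 0.914% of Hsd17b1, 0.873% of Fshr, 0.420% of Lhcgr and 1.52% of Akr1c18. Cyp17a1, at 0.0337%, and Cyp19a1, at 0, did not follow. The other 3 Pax8-BPR GEMM had no Hsd3b1, Fshr or Lhcgr read. Nr5a1, the nuclear receptor that drives these genes in ovary and adrenal, was at 30.1 CPM in this tumour and at most 0.806 CPM in the other 5 Pax8-BPR tumours. Its 8 oocyte genes summed to 4.45 CPM, against 4.46 CPM in GEMM replicate 2. Most Pax8-BPR tumours held little of these: Zp3 was at 0 in 4 of 6 and Nlrp5 in 5 of 6. Bmp15 and Gdf9 had medians of 0.178 and 0.315 CPM over the 6, with highest values of 1.87 and 1.34 CPM. The 9 granulosa genes of GEMM replicate 1 summed to 576.5 CPM, against 197 to 431 CPM in the other GEMM. The luteal marker Ptgfr was at 0.283 CPM, against 351 to 579 CPM in ovary. Of the same luteal list, Prlr and Sfrp4 were at most 4.10 and 56.3 CPM in Pax8-BPR tumours, against means of 282 and 1492 CPM in ovary. Parm1 and Timp3 were near the ovary level instead. Parm1 was between 27.0 and 78.4 CPM in Pax8-BPR tumours with a median of 52.3, against a mean of 48.2 CPM in ovary. Timp3 was between 191 and 666 CPM with a median of 265, against a mean of 271 CPM in ovary. The part of remaining ovarian cells in GEMM replicate 1 was not tested.

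No member differed between allografts and GEMM, and none of the 6 tested differed in that effect between models. For each comparison 0.0% of all genes were called by edgeR. There were 1210 and 902 of 20000 genes at an unadjusted p under 0.05, and DESeq2 called 34 and 26. The median log2 fold change over the 6 members was -0.11, against -0.02 over all genes.

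**Figure D4:**
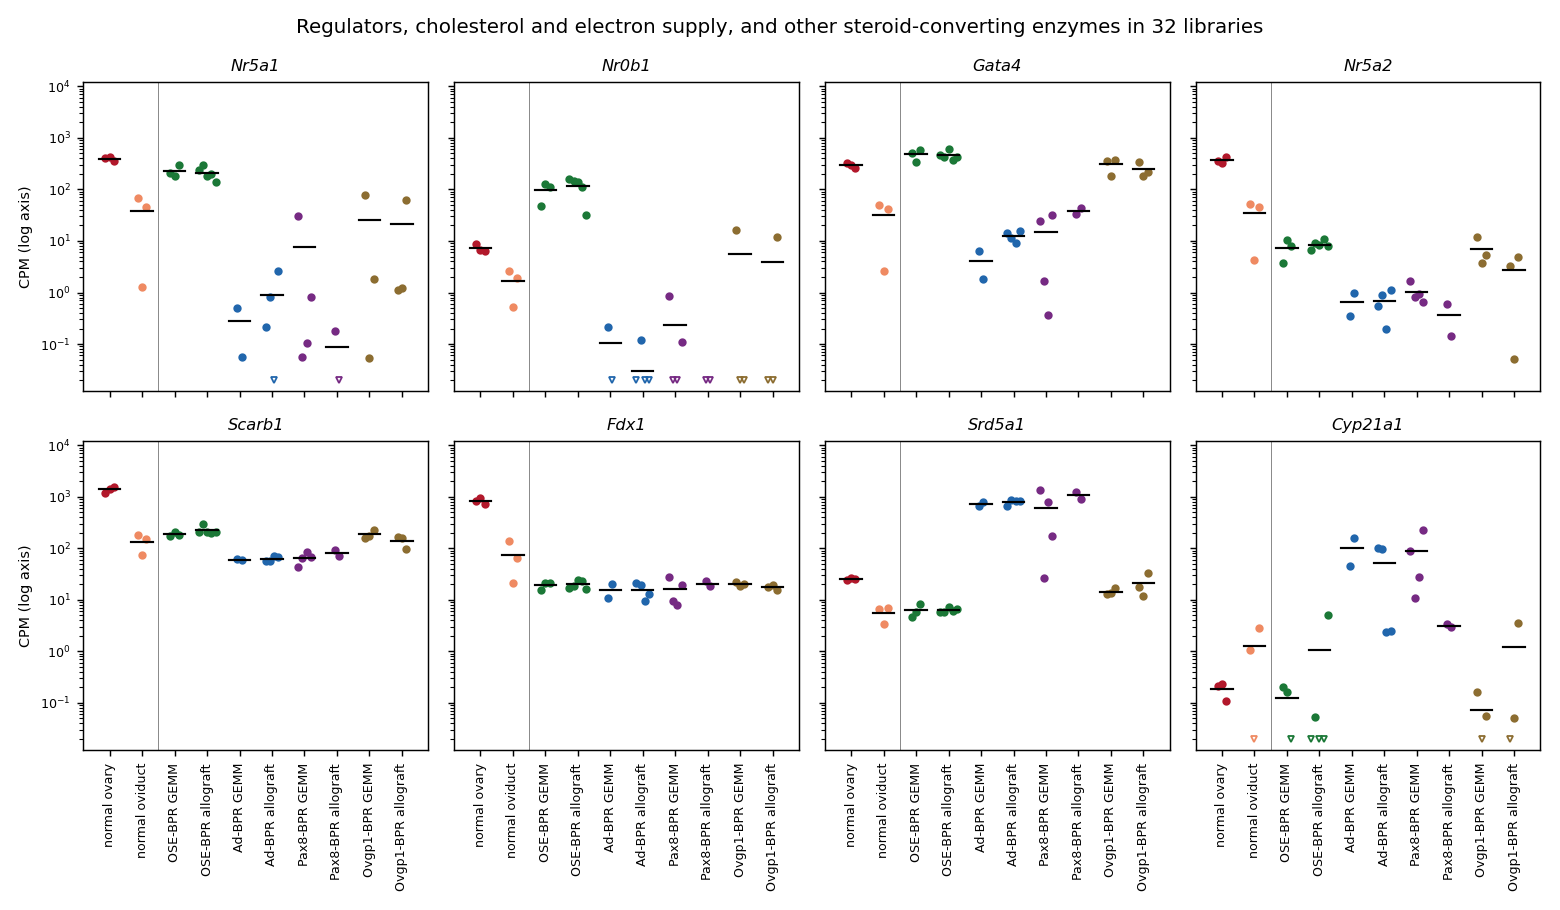
Levels of 8 regulators, supply genes and steroid-converting enzymes in CPM (log axis) in every library, by group. Points are libraries, bars are group means, and triangles mark libraries at 0. Nr5a1 and Nr0b1 are high in OSE-BPR tumours, Srd5a1 in Ad-BPR tumours and most Pax8-BPR tumours, and Fdx1 is low in all 26 tumours.

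Several regulators of the pathway had high levels in OSE-BPR tumours. Nr5a1 was between 139 and 304 CPM with a median of 205 in the 8 OSE-BPR tumours, against 351 to 436 CPM in ovary, and OSE-BPR GEMM did not differ from ovary at the threshold (-0.78 ± 1.61, SE, adjusted p = 0.77). In the 18 other tumours it was at most 2.61 CPM except in Ovgp1-BPR GEMM replicate 1 (76.4 CPM), Ovgp1-BPR allograft replicate 3 (63.0 CPM) and Pax8-BPR GEMM replicate 1 (30.1 CPM), and no value overlapped those of OSE-BPR. OSE-BPR exceeded the other models by 6.65 ± 1.08 (SE, adjusted p = 4.7e-05). The 2 Ovgp1-BPR tumours with the highest Nr5a1 were also those with the highest Cyp17a1 outside OSE-BPR, at 0.848 and 0.841 CPM. In Pax8-BPR GEMM replicate 1 Cyp17a1 was at 0.283 CPM. A link between the 2 genes was not tested.

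Counts over the other genes of the pathway are read against the share of all genes called: OSE-BPR had 26.6% higher and 22.8% lower, Ad-BPR 16.2% higher and 12.4% lower, Pax8-BPR 16.2% higher and 11.8% lower, and Ovgp1-BPR 18.0% higher and 12.5% lower. Of 9 steroidogenic transcription factors, 6 were higher and 1 lower in OSE-BPR than in the other models. Nr0b1, a repressor that binds Nr5a1, was higher by 8.86 ± 1.14 (SE, adjusted p = 4e-06). It was between 32.3 and 163 CPM in OSE-BPR tumours, above the 6.46 to 8.74 CPM of ovary, although OSE-BPR GEMM against ovary missed the threshold (3.73 ± 1.55, adjusted p = 0.085). Gata4, which activates Star and Cyp19a1 in granulosa cells, was higher by 3.71 ± 0.43 (adjusted p = 1e-06), and Nr4a1 lower by 0.61 (adjusted p = 0.047). Nr5a2, the luteal relative of Nr5a1, was between 3.82 and 10.8 CPM in OSE-BPR tumours and 327 to 420 CPM in ovary, a fall of 5.65 (SE 0.90, adjusted p = 0.00011). Nr5a2 and Nr4a1 were the 2 of 9 factors lower in OSE-BPR GEMM than in ovary. In the granulosa list, 6 of 9 genes were higher in OSE-BPR than in the other models, where 26.6% of all genes were, with sums of 630 to 1279 CPM against 197 to 675 CPM, and 5132 to 6109 CPM in ovary. Foxl2 and Nr5a2 stand in both lists. Inhba, an inhibin and activin subunit of granulosa cells, went the other way: it was between 0.315 and 3.35 CPM in OSE-BPR tumours and 40.2 to 171.9 CPM in Ad-BPR and Pax8-BPR tumours, a difference of -4.53 ± 0.59 for OSE-BPR (SE, adjusted p = 3.6e-06). Fst (-1.63, adjusted p = 0.14) and Gja1 (-0.54, adjusted p = 0.11) did not pass.

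In Ovgp1-BPR 5 of the 9 factors were higher, where 18.0% of all genes were, among them Gata4 (2.68 ± 0.44, adjusted p = 0.00012) and Gata6 (2.48 ± 0.35, adjusted p = 2.6e-05). There were 3 factors lower in each of Ad-BPR and Pax8-BPR, where 12.4% and 11.8% of all genes were lower. Gata4 was at 1.82 to 15.5 CPM in Ad-BPR tumours, against 180 to 374 CPM in Ovgp1-BPR and 345 to 599.9 CPM in OSE-BPR, and overlapped with neither.

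The electron donors, which pass electrons to the mitochondrial and microsomal P450 enzymes, were lower in OSE-BPR GEMM than in ovary in 4 of 5, where 11.6% of all genes were lower. Fdx1, the ferredoxin that serves Cyp11a1, fell by 5.41 (SE 0.54, adjusted p = 3e-07). It was at 730 to 928 CPM in ovary and between 8.01 and 27.5 CPM in all 26 tumours, and it showed no difference among the tumour groups (adjusted p = 0.9). Its reductase Fdxr was higher in OSE-BPR than in the other models by 1.92 ± 0.25 (adjusted p = 4e-06). Por and Cyb5b were lower there and Cyb5a was higher, so the list of 5 had 2 genes in each direction.

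Of 12 genes of cholesterol supply, 6 were lower in OSE-BPR GEMM than in ovary and none higher, where 11.6% of all genes were called in each direction. Scarb1, the receptor that takes up cholesterol from high-density lipoprotein, fell by 2.90 (SE 0.28, adjusted p = 2.2e-07). Between models the list was split, with 3 genes higher and 7 lower in OSE-BPR, against 26.6% and 22.8% of all genes. Those higher were Soat1, which stores cholesterol as esters (2.29 ± 0.21, adjusted p = 4.8e-08), Npc1, which exports it from lysosomes (1.71 ± 0.20, adjusted p = 8e-07), and Scarb1 (1.19 ± 0.12, adjusted p = 2e-07). Soat1 was between 424 and 878 CPM in the 8 OSE-BPR tumours and at most 281 CPM in the 18 others. Those lower included the synthesis enzyme Sqle (-1.62 ± 0.38, adjusted p = 0.0015). In oviduct against ovary, 8 of the 12 were lower and 2, Stard3 and Tspo, higher, where 24.5% of all genes were lower and 28.5% higher.

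Some enzymes that convert finished steroids differed between models by large amounts. Srd5a1, which reduces testosterone and progesterone, was between 665 and 875 CPM in the 6 Ad-BPR tumours. In Pax8-BPR it was at 1367, 26.7, 801 and 176 CPM in the GEMM and at 1256 and 889.6 CPM in the allografts. OSE-BPR tumours had 4.63 to 8.42 CPM, Ovgp1-BPR tumours 12.0 to 32.9 CPM, ovary 24.4 to 26.3 CPM and oviduct 3.43 to 6.93 CPM. It was higher in Ad-BPR (4.11 ± 0.39, adjusted p = 1.6e-06) and Pax8-BPR (4.19 ± 0.39, adjusted p = 2.9e-06) than in the other models. In OSE-BPR it was lower (-5.12 ± 0.54, adjusted p = 2.8e-07), while its relative Srd5a2 was higher (4.77 ± 0.62, adjusted p = 3.9e-06). The Ad-BPR level of Srd5a1 thus exceeded that of either normal tissue in every tumour. Of the 14 list genes tested, 3 were higher in each model, while none was lower in Ad-BPR, 1 in Pax8-BPR, 4 in OSE-BPR and 5 in Ovgp1-BPR.

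Cyp21a1, the steroid hydroxylase that marks the adrenal cortex, was called higher in Ad-BPR (5.86 ± 0.99, adjusted p = 0.00024), and Pax8-BPR showed the same call (3.04 ± 0.97, adjusted p = 0.024). It was between 2.38 and 158.6 CPM in Ad-BPR tumours and between 2.92 and 221 CPM in Pax8-BPR tumours. Cyp21a1 has a near-identical pseudogene, and how reads were divided between them leaves its level uncertain. The other 4 adrenal markers were low. Cyp11b2 was at 0 in all 12 Ad-BPR and Pax8-BPR tumours. Cyp11b1 was at 0 in 2 of 6 Ad-BPR and 3 of 6 Pax8-BPR tumours, and at most 0.908 and 0.220 CPM. Mc2r, the corticotropin receptor, was at 0 in 3 of 6 Ad-BPR and 1 of 6 Pax8-BPR tumours, and at most 0.193 and 0.424 CPM. Mrap, the accessory protein of that receptor, was at most 1.42 CPM in Ad-BPR and 8.91 CPM in Pax8-BPR, against 71.0 to 105.7 CPM in ovary, and was called higher in Pax8-BPR than in the other models (2.33 ± 0.68, SE, adjusted p = 0.015). The part of adrenal cells in these values was not tested.

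Receptors for the hormones themselves were spread over the models. Pgr, the progesterone receptor, was higher in Ad-BPR (4.55 ± 0.75, adjusted p = 0.0002), the model with the most Akr1c18, and lower in OSE-BPR (-5.05 ± 1.05, adjusted p = 0.0005). Ovgp1-BPR tumours had more Esr1, the oestrogen receptor (1.80 ± 0.48, adjusted p = 0.0071). Esr1 was lower in OSE-BPR (-1.29 ± 0.51, adjusted p = 0.042). Of the 8 receptor genes, 4 were higher and 1 lower in Ovgp1-BPR.

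The genes whose profile was most like that of each member were sought by Pearson's r of log2(TPM + 1), as a description. Over all 32 libraries and 14680 genes, the coefficients are set largely by the 3 ovaries, which are high for every member. Lhcgr was most like Hao2 (r = 0.995), Fshr like Rims4 (0.989), Hsd3b1 like Serpina5 (0.985), Cyp11a1 like Apoa4 (0.984), Cyp19a1 like Ankrd63 (0.983), Hsd17b1 like Fbxw21 (0.98), Cyp17a1 like Eif4e1b (0.968) and Akr1c18 like Npm2 (0.945). Star had the lowest of these best matches, Fdxr (0.899), itself an electron donor of the pathway.

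Within the 26 tumours and 14317 genes, Akr1c18 was most like Guca2b (r = 0.931), Inpp4b (0.902) and Anxa10 (0.886). Anxa10 had a mean of 34.6 TPM in Ad-BPR GEMM, 45.3 TPM in Ad-BPR allograft, 7.14 and 9.94 TPM in the Pax8-BPR groups and 0 in all other groups, normal tissues included. Cyp17a1 was most like Itpkb (0.936), which had a mean of 46.5 and 50.4 TPM in the OSE-BPR groups and at most 24.3 TPM in the other tumour groups. Star was most like Zfpm2 (0.79), which encodes a cofactor of GATA factors. Cyp11a1 (Mmp11, 0.754), Hsd3b1 (Sbsn, 0.688) and Hsd17b1 (Mblac2, 0.643) had no closer match, and their reads are few in most tumours. Tumours of a model share genotype and site, so these points are not independent.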

How the data were processed

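Total RNA of 26 tumours and 6 normal tissues was sequenced. RSEM expected counts and TPM per gene were deposited by the authors (6.7% of count values are not whole). The submitters' processing notes name STAR 2.7.0f, RSEM 1.3.1, cutadapt 1.18, bcl2fastq and Picard, and the builds GRCm38 and mm10. The sources used here do not give the strandedness. Titles gave the groups, and the tissue in the title divides the normal samples into ovary and oviduct.

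Counts were rounded and tested with edgeR 4.0.16 (R 4.3.3, quasi-likelihood F test, TMM, filterByExpr with minimum count 10 and total 15) in fits of 6 normal, 26 tumour or all 32 libraries. The standard error is the log2 fold change divided by the square root of F. Calls need an adjusted p below 0.05. CPM came from the fit of 32. The test was tried on simulated data. Normal tissues pair by animal, per the titles, and deviations of an animal's tissues correlated at -0.0844, -0.0435 and 0.0598. The animal block was an alternative, as were DESeq2 1.42.0, limma 3.58.1, other scaling, no filter and leaving out each library.

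The members and lists were chosen with earlier results of these data known. Of the other lists, up to 3 called genes per direction with 5 CPM or more in their higher arm, and relatives of members, were named; values of further list genes (Fdx1, Nr5a1, Nr5a2, Gata4, Soat1, Cga, Fshb, Lhb, Fst, Gja1, Mrap, Mc2r, Cyp11b1 and Cyp11b2) were chosen after they were seen. Lists not described above, gonadotropin signalling, ciliated cells, smooth muscle and epithelial tumour cells, had 3, 1, 0 and 1 genes higher and 3, 2, 4 and 1 lower in OSE-BPR than in the other models.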

Additional observations from a re-analysis of the deposited data

Results flagged for a closer look

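For groups of 4 to 10 samples, 16 sets of values (a member with at least 10 reads in a sample of the group) were examined. A sample stood far apart from the rest in 5 of them. Chance alone marks about 1 in 20 sets drawn without such a condition, a share that cannot be held against these 5, since a set entered when only 1 sample had reads. Pax8-BPR GEMM replicate 1 was the sample in 4 of the 5. Star was at 139.9 CPM there and between 16.6 and 26.3 CPM in the other 3 GEMM, so that the gap took up 0.921 of the range (critical value 0.829). Cyp11a1 was at 47.6 CPM against 0.0537 to 0.636 CPM (0.988 of the range). Hsd3b1, at 43.0 CPM, and Lhcgr, at 1.63 CPM, were at 0 in the other 3, so the gap was the whole range (1.0) by the entry condition itself. The fifth was Ad-BPR allograft replicate 2, with Hsd3b1 at 3.79 CPM against at most 0.111 CPM in the other 3 (0.971 of the range).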

How the results depend on the processing

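Of 675 alternative values for 36 member results, 608 kept direction and side of the threshold, 48 lost the call, 18 gained it and 1 turned: Star in oviduct-origin GEMM against oviduct, 0.26 without oviduct replicates 1 and 3. Scarb1 turned there too, to 0.25. In that setting 2597 genes and 2 members were called. For oviduct against ovary, 9191 genes were called, 2605 with all 32 libraries, and 1163 genes and 4 members when oviducts 1 and 3 were also left out, an alternative chosen after seeing the data. The replicate block by animal gave 7971 genes and changed, among members, only Hsd3b1. With limma on log2(TPM + 1), 1 member was called in Ad-BPR, 0 in Pax8-BPR, 0 in Ovgp1-BPR and 2 in the test of any difference; with log2(TPM + 0.1), 1 in Pax8-BPR (Cyp17a1, lower), 2 in Ovgp1-BPR and 2 in the test of any difference. DESeq2 called 2 members in Ovgp1-BPR, 34 genes between allografts and GEMM, and 26 in the difference of that effect between models, where both limma settings called 1. TPM moved the split of higher and lower calls: from 4946 and 4245 to 3923 and 5337 for oviduct, from 3250 and 2482 to 2376 and 3373 for Ad-BPR, and from 3233 and 2361 to 1708 and 4178 for Pax8-BPR, whose median over all genes was then -0.14.

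Leaving out each library gave 7445 to 9048 genes and 4 to 9 members for oviduct against ovary, 3114 to 4934 and 8 to 9 for OSE-BPR GEMM against ovary, 5441 to 8037 and 8 to 9 for oviduct-origin GEMM, 8490 to 10184 and 1 to 5 for OSE-BPR, 2927 to 6294 and 1 to 2 for Ad-BPR, 3257 to 6185 and 0 to 2 for Pax8-BPR, 4351 to 6714 and 1 to 2 for Ovgp1-BPR, and 9492 to 10782 and 3 to 4 for any difference. The 5 in OSE-BPR came without Pax8-BPR GEMM replicate 1 and the 1 without Ovgp1-BPR GEMM replicate 1. Where 1 library was left in a group (oviduct, Ad-BPR GEMM or Pax8-BPR allograft), it is assumed to vary like the other groups. The causes were not tested. Depth limits Cyp19a1, Fshr, Lhcgr and Hsd3b1 in tumours, where most values are 3 reads or fewer and intervals cover counting error only.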
